A study of Mus musculus with 8 samples.

Results

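The nuclear receptor genes other than Hnf4a were examined in AML12 mouse hepatocytes that carried or lacked VWA8. The members were a named list of 45 receptor genes, and each was read from the probe set that names that gene alone; where a gene had several such probe sets, the one with the highest mean over all 8 arrays was taken. Of the 45 receptors, 43 were measured, among 22180 genes measured in the same way. Nr1h2 and Nr2e3 had no such probe set and were not analysed here. AML12 is an established hepatocyte line from the liver of a mouse with a human TGF-alpha transgene, so both groups carry that transgene. The wild-type group consisted of 4 cultures with the intact gene, and the knockout group of 4 cultures from which VWA8 had been deleted with CRISPR/Cas9. Both groups grew in the same medium, which contained serum, insulin, transferrin, selenium and the synthetic glucocorticoid dexamethasone, and both were differentiated before total RNA was hybridised to Affymetrix Mouse 2.0 arrays. The cultures of a group were separate, but how many knockout clones they came from is not stated, so a property of 1 clone and the loss of VWA8 cannot be told apart.

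Nuclear receptors are transcription factors whose activity is set by small lipophilic molecules such as fatty acids, oxysterols, bile acids, retinoids, thyroid hormone and steroids, while members without a known hormone are called orphan receptors. Each has a zinc finger domain that reads a short DNA word, most often AGGTCA or a close variant, and most also have a ligand-binding pocket that exchanges corepressors for coactivators when it is filled. In hepatocytes many of them work as pairs with a retinoid X receptor and set the expression of genes of fatty acid oxidation, sterol export, bile acid transport and drug metabolism.

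The targeted gene separated the groups. Vwa8 had a log2 signal of 8.95 ± 0.0414 (SD, n = 4) in the wild type and 5.18 ± 0.116 (SD, n = 4) in the knockout, a 13.6-fold lower level; where its probes lie relative to the deletion is not stated. Array medians lay between 4.27 and 4.33, and pairs of arrays correlated at 0.985 to 0.989 within the wild type, 0.986 to 0.989 within the knockout and 0.978 to 0.984 across the groups. Of 12 hepatocyte markers 10 rose and none fell in the knockout, and their mean signal was 7.65 to 7.79 on the wild-type arrays and 8.77 to 8.91 on the knockout arrays. The 6 measured cholangiocyte markers had means of 6.08 to 6.22 and 5.87 to 5.99, with Krt7 and Cftr lower. Stellate cell and fibroblast markers (8 genes, means of 3.80 to 3.89 and 3.66 to 3.84, none past the threshold), endothelial markers (6 genes, 3.67 to 3.89 and 3.83 to 3.97, none past the threshold) and macrophage markers (7 genes, 4.54 to 4.69 and 4.48 to 4.63, Cd14 lower) stayed near the array medians. The part of the hepatocyte marker rise in the receptor differences was not tested. In RNA from whole cultures, fewer cells expressing a gene and less RNA per cell cannot be told apart.

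Of the 8 measured receptors for fatty acids, sterols, bile acids, xenobiotics and vitamin D, 3 were higher in the knockout and 1 was lower. Among the 4 ROR and REV-ERB genes 2 were lower and none was higher. The same held for 2 of the 3 NR4A genes. The higher side held 6 receptors, Nr1i2, Thrb, Rxra, Nr1h3, Nr5a2 and Ppara. The lower side held 7 receptors, Nr4a2, Rorb, Nr4a1, Nr1d2, Nr2c1, Pparg and Nr2c2. Differences are given as log2 signal in the knockout minus log2 signal in the wild type, and a gene was counted as changed where the limma test, adjusted by Benjamini-Hochberg over all 22180 genes, gave a p below 0.05. By that rule 13 of 43 receptors (30.2%) changed, while the same rule called 20.9% of all genes; the share was 14.0% higher and 16.3% lower among receptors against 10.4% in each direction over all genes. The comparison with all genes depends on brightness. Among the 30 receptors with a group mean above the median probe set signal of 4.29, 13 (43.3%) changed, against 35.0% of the 12357 genes of that kind. None of the other 13 receptors changed, against 3.04% of 9823 dim genes. The members' count is thus given as a description, since no test set the receptors against other genes. The median difference was -0.054 over the receptors and -0.003 over all genes. Changes of at least 2-fold were found for 2 receptors, Nr1i2 and Thrb, and for 450 genes in all. In 15 receptors the 4 knockout arrays did not overlap the 4 wild-type arrays, 7 of them higher and 8 lower, and over all genes 26.1% did not overlap. The 2 receptors added in this way were Nr6a1 and Vdr, which did not pass the test.

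**Figure D1:**
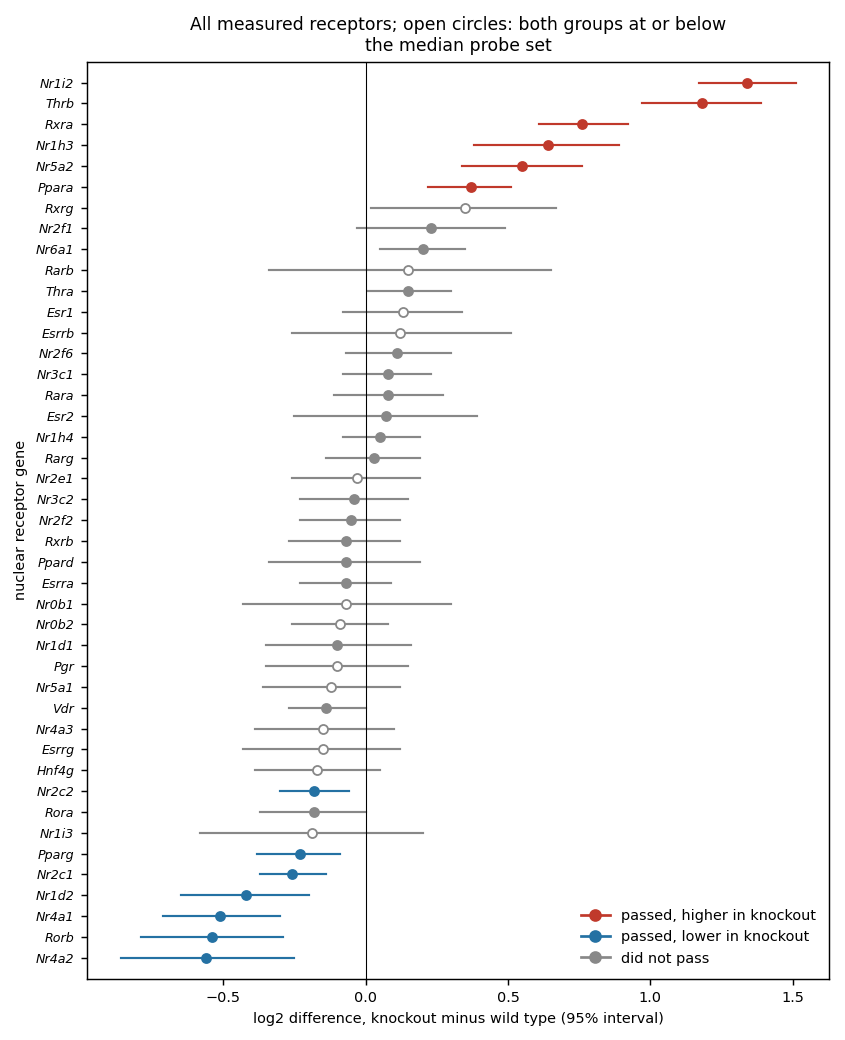
Difference in log2 signal, knockout minus wild type, for each of the 43 measured nuclear receptors, with its 95% interval from limma on the horizontal axis. Red marks the 6 receptors that were higher, blue the 7 that were lower and grey the receptors that did not pass; open circles are receptors with both group means at or below the median probe set signal. Nr1i2 stood highest at 1.34 and Nr4a2 lowest at -0.56.

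Nr1i2 encodes PXR, the xenobiotic sensor that switches on drug-metabolising genes, and had the largest difference of any receptor measured. Its log2 signal was 5.42, 5.51, 5.52 and 5.70 on the wild-type arrays and 6.86, 6.97, 6.80 and 6.89 on the knockout arrays. Every knockout array lay more than 1 log2 unit above the highest wild-type array. The difference was 1.34 ± 0.074 (SE), a 2.53-fold increase (limma adjusted p = 5.16e-06). Nr1i3 encodes CAR, the sister receptor that shares many targets with PXR. It was dim in both groups, at 4.06 ± 0.215 (SD, n = 4) in the wild type and 3.87 ± 0.340 (SD, n = 4) in the knockout. Both means lay below the median probe set signal, and background was not measured. The Nr1i3 difference of -0.19 had an interval of -0.58 to 0.20 (limma adjusted p = 0.530).

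Rxra encodes the main hepatic retinoid X receptor, the shared partner of PXR, the LXRs, FXR, PPARs, thyroid hormone receptors and retinoic acid receptors. The wild-type arrays read 7.89, 7.84, 7.95 and 7.92 and the knockout arrays 8.76, 8.75, 8.60 and 8.55, with no overlap. The gain of 0.76 ± 0.068 corresponded to 1.70-fold (limma adjusted p = 7.35e-05). Rxra lies on chromosome 2 among genes that were themselves shifted upward by a median of 0.18; with that local median subtracted its difference was 0.58 and still passed (limma adjusted p = 0.000382). The related partner Rxrb differed by -0.07 (interval -0.27 to 0.12, limma adjusted p = 0.630). Rxrg, the form typical of muscle and brain, was dim, at 3.30 ± 0.110 and 3.65 ± 0.310 (SD, n = 4 each), and its difference of 0.35 did not pass (limma adjusted p = 0.137). Without knockout replicate 4, the only knockout array within the wild-type range, the Rxrg difference was 0.49 (limma adjusted p = 0.00981). It passed in no other alternative setting. The neighbours of Rxrg on chromosome 1 had a median of 0.14, and against that median its difference was 0.20 (limma adjusted p = 0.371).

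Nr1h3 encodes LXRα, the oxysterol receptor that drives sterol export and fatty acid synthesis. Its signal was 6.60, 6.34, 6.41 and 6.55 in the wild type and 6.83, 7.27, 7.29 and 7.06 in the knockout. Knockout replicate 1 lay closest to the wild type, and the groups did not overlap. The difference was 0.64 ± 0.112, or 1.56-fold (limma adjusted p = 0.00358). Nr1h3 also lies on chromosome 2, where its neighbours had a median of 0.15, and its difference with that median subtracted was 0.48 (limma adjusted p = 0.0161). Nr1h4 encodes FXR, the bile acid receptor. It read 10.42, 10.46, 10.38 and 10.29 in the wild type and 10.41, 10.40, 10.50 and 10.44 in the knockout, so the groups overlapped. Its difference was 0.05 with an interval of -0.08 to 0.19 (limma adjusted p = 0.633), and the upper bound lies below the difference of Nr1h3. Nr1h4 lies on chromosome 10, where neighbouring genes were lower by a median of -0.22, and its difference against that local median was 0.27 (limma adjusted p = 0.0125).

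The 3 PPAR genes, receptors for fatty acids and their derivatives, did not move in one direction. Ppara, the receptor that governs hepatic fatty acid oxidation, read 6.93, 6.86, 6.89 and 6.96 in the wild type and 7.32, 7.31, 7.13 and 7.35 in the knockout. All knockout arrays exceeded all wild-type arrays, with knockout replicate 3 the lowest of its group. The increase was 0.37 ± 0.065, or 1.29-fold (limma adjusted p = 0.00378). Pparg, the receptor best known for fat cell formation, read 6.47, 6.40, 6.58 and 6.46 against 6.22, 6.35, 6.24 and 6.17. Its groups did not overlap but knockout replicate 2 and wild-type replicate 2 were close together. The difference was -0.23 ± 0.065, a 1.18-fold decrease (limma adjusted p = 0.0322). That call was close to the threshold. Without wild-type replicate 1, 3 or 4 or knockout replicate 1, 3 or 4 the difference stayed at -0.24 to -0.20. The limma adjusted p in those fits rose to between 0.0644 and 0.0812. Fits with 1 array left out also called fewer of all genes, 17.4% to 18.2% against 20.9%. The neighbours of Pparg on chromosome 6 had a median of -0.10, and against that median its difference was -0.14 and did not pass (limma adjusted p = 0.180). Ppard, the broadly expressed form, differed by -0.07 (interval -0.34 to 0.19, limma adjusted p = 0.737). Without wild-type replicate 1, the lowest array of the gene at 6.40, that difference was -0.19 and did not pass (limma adjusted p = 0.0923).

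Vdr, the vitamin D receptor, read 6.32, 6.23, 6.35 and 6.23 in the wild type and 6.14, 6.17, 6.22 and 6.06 in the knockout. The groups were separated by a narrow margin and the difference of -0.14 ± 0.061 did not pass (limma adjusted p = 0.166). In all, 3 of the 8 measured receptors for fatty acids, sterols, bile acids, xenobiotics and vitamin D were higher and 1 was lower.

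Thrb encodes thyroid hormone receptor beta, the form that mediates most hepatic effects of the hormone on lipid metabolism. The wild-type arrays read 6.85, 7.18, 7.10 and 6.82 and the knockout arrays 8.25, 8.16, 8.10 and 8.15. The knockout arrays were close together and well above the wild type, which was more spread out. The difference was 1.18 ± 0.092, or 2.26-fold (limma adjusted p = 3.70e-05). Thra, the form dominant in heart and bone, read 6.90 ± 0.0921 and 7.05 ± 0.0431 (SD, n = 4 each) and its difference of 0.15 ± 0.064 did not pass (limma adjusted p = 0.135). The retinoic acid receptors, which share the RXR partner, did not pass either. Rara differed by 0.08 (interval -0.11 to 0.27) and Rarg by 0.03 (interval -0.14 to 0.19). Rarb was dim and varied within the knockout from 3.70 to 4.77, so its interval ran from -0.34 to 0.65.

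**Figure D2:**
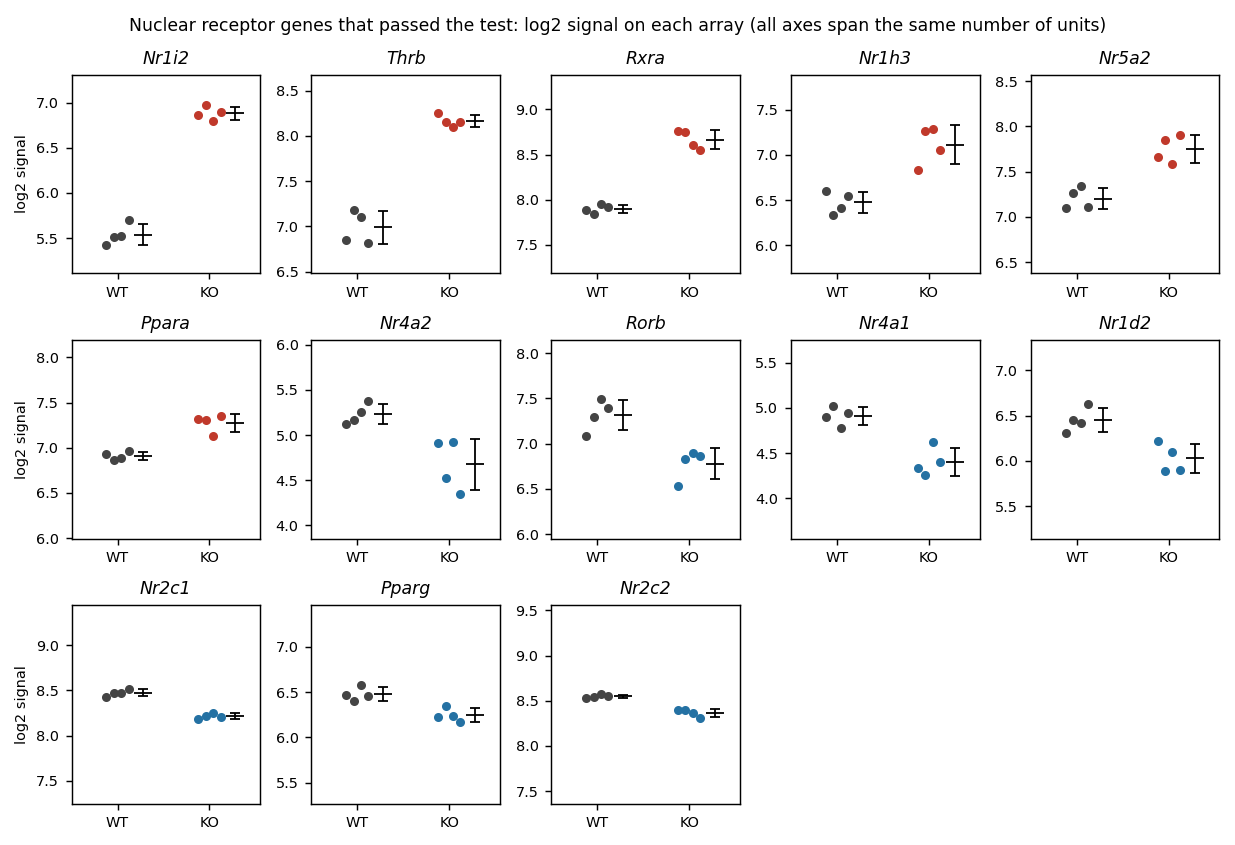
Log2 signal on each of the 4 wild-type (WT) and 4 knockout (KO) arrays for the 13 receptors that passed the test, 1 panel per gene, with the group mean and SD beside the points; every vertical axis spans the same number of log2 units. In each panel the groups do not overlap, and the gap ranges from more than 1 log2 unit in Nr1i2 to a narrow margin in Pparg and Nr1d2.

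Nr5a2 encodes LRH-1, which acts on bile acid and cholesterol genes in the liver and binds DNA as a single molecule. It read 7.10, 7.26, 7.34 and 7.11 in the wild type and 7.66, 7.85, 7.59 and 7.91 in the knockout. The groups did not overlap. The difference was 0.55 ± 0.093, or 1.47-fold (limma adjusted p = 0.00278). Its relative Nr5a1, which directs steroid hormone synthesis in the adrenal gland and gonads, was dim and differed by -0.12 (interval -0.36 to 0.12). Nr6a1, a receptor of germ cells and early embryos, read 4.44, 4.31, 4.36 and 4.46 against 4.66, 4.67, 4.56 and 4.50. It was near the median probe set and the groups did not overlap, but the difference of 0.20 ± 0.065 did not pass (limma adjusted p = 0.0626). It passed in 4 alternative settings, while against the median of 0.18 of its neighbours on chromosome 2 it was 0.02 (limma adjusted p = 0.851). Nr0b2 encodes SHP, a receptor without a DNA-binding domain that FXR induces and that restrains LRH-1. It was dim, at 3.99 ± 0.0330 and 3.90 ± 0.130 (SD, n = 4 each), and differed by -0.09 with an interval of -0.26 to 0.08 (limma adjusted p = 0.470). Nr0b1, the other member of that kind, was also dim and differed by -0.07 (interval -0.43 to 0.30).

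The ROR and REV-ERB receptors compete for the same DNA element, RORs as activators and REV-ERBs as repressors, and so shape the rhythm of the clock gene Bmal1. All 4 differences in this group were negative, and 2 passed. Rorb, best known from retina and brain, read 7.09, 7.30, 7.49 and 7.39 in the wild type and 6.53, 6.83, 6.90 and 6.86 in the knockout. The groups did not overlap, and the first replicate was the lowest of each. The difference was -0.54 ± 0.111, a 1.45-fold decrease (limma adjusted p = 0.00816). Nr1d2, which encodes REV-ERBβ, read 6.31, 6.45, 6.42 and 6.63 in the wild type against 6.22, 5.89, 6.10 and 5.90 in the knockout. Its highest knockout array came close to its lowest wild-type array without crossing it. The difference was -0.42 ± 0.098, a 1.34-fold decrease (limma adjusted p = 0.0143). Nr1d1, which encodes REV-ERBα, read 6.77 ± 0.0782 and 6.68 ± 0.235 (SD, n = 4 each), and its difference of -0.10 had an interval of -0.35 to 0.16 (limma adjusted p = 0.643). Without knockout replicate 2, the lowest array at 6.35, that difference was 0.01. Rora differed by -0.18 ± 0.081 and did not pass (limma adjusted p = 0.160). The labels give no time of day or medium change, so the state of the clock in the cultures is not known.

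The NR4A receptors are immediate early genes: they are transcribed within a short time of a stimulus such as a hormone, a growth factor or cyclic AMP, and act without a known ligand. Nr4a2, also called Nurr1, read 5.12, 5.17, 5.26 and 5.38 in the wild type and 4.91, 4.53, 4.92 and 4.35 in the knockout. The groups did not overlap, and the knockout arrays fell into a higher and a lower pair. The difference was -0.56 ± 0.136, a 1.47-fold decrease (limma adjusted p = 0.0184). It was -0.51 without wild-type replicate 4 (limma adjusted p = 0.0529) and -0.51 without knockout replicate 2 (limma adjusted p = 0.0531). The call was thus close to the threshold, while the difference changed little. Its neighbours on chromosome 2 had a median of 0.16, and against that median its difference was -0.72 (limma adjusted p = 0.00579). Nr4a1, also called Nur77, read 4.90, 5.02, 4.78 and 4.94 against 4.34, 4.26, 4.62 and 4.40. No knockout array reached the wild type, and the difference was -0.51 ± 0.090, a 1.42-fold decrease (limma adjusted p = 0.00381). The knockout mean of Nr4a1, 4.40, lay near the median probe set signal of 4.29, and background was not measured. Nr4a3, also called Nor1, was dim at 3.42 ± 0.144 and 3.27 ± 0.185 (SD, n = 4 each), and its difference of -0.15 did not pass (limma adjusted p = 0.413).

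The NR4A promoters are shown because the cyclic AMP response is the best known route to these genes and the pair that passed moved in the same direction. Sequences are those of RefSeq on GRCm38.p6, given 5′ to 3′ on the gene's strand, and the capitals mark the core TGACG of the cyclic AMP response element or, on the other strand, CGTCA. The Nr4a2 window covers the 250 bases before the start, at chr2:57124004-57124253 on the minus strand. The Nr4a1 stretch of 30 bases begins at position -233 from the start, at chr15:101266613-101266642 on the plus strand, and the Nr4a3 stretch of 30 bases begins at -213, at chr4:48045092-48045121 on the plus strand.
Nr4a2: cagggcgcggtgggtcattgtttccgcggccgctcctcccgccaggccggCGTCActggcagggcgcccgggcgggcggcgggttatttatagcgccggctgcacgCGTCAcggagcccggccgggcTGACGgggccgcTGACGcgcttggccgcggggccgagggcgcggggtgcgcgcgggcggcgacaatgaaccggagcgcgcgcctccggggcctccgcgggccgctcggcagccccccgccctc
Nr4a1: CGTCAatggaaccccgcgtgCGTCAcgcgc
Nr4a3: CGTCAcatTGACGtctcgcattccaggcac
Each of these genes has 4 copies of the core, both strands counted, in the 250 bases before its listed start. At least 4 copies were present in 45 of 32851 promoter windows of that length in the RefSeq table (0.137%), and at least 1 copy in 17.8% of them. Among the 61 windows of the 41 receptors with an entry, 13 (21.3%) held at least 1 copy. This core was chosen for the search after the receptor differences were known. The cutoff of 4 copies equals the count found in the NR4A genes themselves, so the share of 0.137% is only a description. Nr4a3, which did not pass, has as many copies as the pair that did. A match of letters is not evidence of a bound factor.

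The receptor word AGGTCA was searched in the same windows, since receptors can regulate receptor genes. It was present in 11 of the 61 receptor windows (18.0%) and in 14.0% of all windows. Of the receptors that passed, Nr1d2, Nr5a2, Pparg, Rxra and Thrb had it in at least 1 window. The windows of Nr1d2 (chr14:18239107-18239356, minus strand) and Nr5a2 (chr1:136960449-136960698, minus strand) are shown as the cases with a single copy next to the most upstream start, at -77 and -64, with that word in capitals.
Nr1d2: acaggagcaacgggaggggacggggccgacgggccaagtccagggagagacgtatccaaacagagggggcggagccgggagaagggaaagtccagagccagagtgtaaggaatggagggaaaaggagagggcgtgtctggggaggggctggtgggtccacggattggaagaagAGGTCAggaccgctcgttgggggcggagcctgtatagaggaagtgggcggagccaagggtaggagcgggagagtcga
Nr5a2: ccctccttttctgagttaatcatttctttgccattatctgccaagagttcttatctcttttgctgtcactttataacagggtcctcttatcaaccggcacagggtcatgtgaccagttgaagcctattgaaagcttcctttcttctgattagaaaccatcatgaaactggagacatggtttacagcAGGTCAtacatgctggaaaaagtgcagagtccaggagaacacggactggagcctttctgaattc
The longer ROR and REV-ERB word ANTAGGTCA, the DR1 and DR4 repeats of AGGTCA and the D-box TTATGTAA were in none of the 61 windows, against 0.548%, 0.0335%, 0.0152% and 0.819% of all windows. The E-box CACGTG was in 5 receptor windows (8.20%), those of Esr2, Nr0b2, Nr1i3, Rara and Thrb, and in 6.02% of all windows. Both strands were searched, and each ANTAGGTCA, DR1 or DR4 match also holds an AGGTCA.

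Among the orphan receptors of the NR2 family and Hnf4g, 2 of 7 measured genes were lower. Nr2c1 and Nr2c2 encode TR2 and TR4, which form a pair with each other and bind repeats of the receptor word. Nr2c1 read 8.43, 8.47, 8.47 and 8.52 in the wild type and 8.18, 8.22, 8.25 and 8.21 in the knockout. The replicates were close together and the groups did not overlap. The difference was -0.26 ± 0.052, a 1.19-fold decrease (limma adjusted p = 0.00713). Nr2c1 lies on chromosome 10, where its neighbours were lower by a median of -0.19. With that median subtracted, its difference was -0.07 and did not pass (limma adjusted p = 0.390). Nr2c2, on chromosome 6, read 8.53, 8.54, 8.57 and 8.55 against 8.40, 8.40, 8.36 and 8.31. The wild-type arrays were almost equal and above every knockout array, and the difference was -0.18 ± 0.051, a 1.13-fold decrease (limma adjusted p = 0.0360). With any 1 of the 8 arrays left out it stayed at -0.19 to -0.16, but the limma adjusted p rose to between 0.0622 and 0.0868. Nr2f1, Nr2f2 and Nr2f6, the COUP-TF genes that act mostly as repressors, differed by 0.23, -0.05 and 0.11, and none passed. Hnf4g, the close relative of Hnf4a, was dim at 3.23 ± 0.155 and 3.06 ± 0.138 (SD, n = 4 each) and differed by -0.17 (interval -0.39 to 0.05, limma adjusted p = 0.299). Hnf4a itself rose from 9.00 ± 0.0511 to 9.44 ± 0.0402 (SD, n = 4 each), a difference of 0.45 ± 0.055 (limma adjusted p = 0.000466). Nr2e1, a brain receptor, was dim and differed by -0.03.

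None of the 5 steroid receptors and none of the 3 estrogen-related receptors passed. Nr3c1 encodes the glucocorticoid receptor, whose synthetic ligand was in the medium of both groups. It read 8.63, 8.82, 8.88 and 8.78 in the wild type and 8.90, 8.81, 8.90 and 8.80 in the knockout. The groups overlapped, and the difference of 0.08 had an interval of -0.08 to 0.23 (limma adjusted p = 0.529). Nr3c2, the mineralocorticoid receptor, differed by -0.04 (interval -0.23 to 0.15); it had 2 probe sets, and the other gave -0.11. Esr1, Esr2 and Pgr, receptors of estrogens and progesterone, had group means between 3.25 and 4.47, and their differences lay between -0.10 and 0.13. Esrra, a regulator of mitochondrial genes, was well detected and differed by -0.07 (interval -0.23 to 0.09), while Esrrb and Esrrg were dim and differed by 0.12 and -0.15.

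Related receptors were compared within each array, because a change past the threshold in one gene and not in its relative does not show that they differ. For 12 pairs, chosen after the differences were known, the signal of one gene minus that of the other was computed on each array and compared between groups with a two-sided exact permutation test, whose smallest p with 4 against 4 arrays is 0.0286. In 4 of the pairs one gene (Nr1i3, Nr5a1 or Nr4a3) lay below the median probe set signal in both groups. Whether these 3 genes lie above background was not measured, so no difference is given for those pairs. The change in Thrb exceeded that in Thra by 1.03 ± 0.142 (SE), and Rxra exceeded Rxrb by 0.84 ± 0.091. Ppara exceeded Pparg by 0.60 ± 0.077 and Nr1h3 exceeded Nr1h4 by 0.59 ± 0.130. Rorb fell more than Rora, with a difference of -0.35 ± 0.086, and Nr2c1 more than Nr2c2, at -0.08 ± 0.034. These 6 pairs did not overlap between the groups and each gave the smallest exact permutation p of 0.0286, or 0.0429 after adjustment over the 12 pairs. That adjustment also counts the 4 pairs set aside. Because the pairs were chosen by their values, these p-values are descriptions and not an independent test, and the same smallest p covers large and small differences alike. The change in Ppara exceeded that in Ppard by 0.44 ± 0.145, and Nr1d2 differed from Nr1d1 by -0.33 ± 0.126 (exact permutation p = 0.0571 and adjusted p = 0.0686 for both). Local chromosomal medians differed within several pairs. Against their local medians Nr1h3 and Nr1h4 differed by 0.48 and 0.27, and Nr2c1 and Nr2c2 by -0.07 and -0.19, the reverse order of the unadjusted values.

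Chromosomal position was examined because several receptor genes lie side by side and the genes of some chromosomes were shifted on balance. Only the chromosomes of receptors that passed were summarised, from genes with a mean signal above that of the median gene. The median difference was 0.17 on chromosome 1, 0.16 on chromosome 2, -0.18 on chromosome 10 and -0.13 on chromosome 14. Of the receptors that passed, chromosome 2 carries Rxra, Nr1h3 and Nr4a2, chromosome 1 Nr5a2, chromosome 10 Nr2c1, and chromosome 14 Thrb and Nr1d2. Receptors that did not pass lie there too. They are Nr5a1 and Nr6a1 on chromosome 2 and Nr1i3, Rxrg and Esrrg on chromosome 1. Chromosome 10 also carries Nr1h4, Nr2e1 and Esr1, and chromosome 14 Rarb. The neighbours of Nr5a2 had a median of 0.00 and those of Nr1i2 on chromosome 16 a median of -0.01. Against the local medians, Thrb differed by 1.28, Nr1i2 by 1.35, Nr5a2 by 0.55 and Ppara by 0.45, and each passed. Whether the groups differ in the copy number of these chromosomes was not tested, so for Rxra, Nr1h3 and Nr2c1 the difference as measured and the one against the local median are both given. Gene order was taken from RefSeq on GRCm38.p6.

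Rarb, Thrb and Nr1d2 are consecutive measured genes on chromosome 14, with differences of 0.15, 1.18 and -0.42. Thrb and Nr1d2 passed in opposite directions, while Rarb was dim and did not pass. Of the 20 measured genes nearest to this trio, 10 on each side, 2 were higher, 1 was lower and the median was -0.01. On chromosome 11, Thra and Nr1d1 overlap on opposite strands and Rara lies a few genes away. None of these 3 receptors passed, while 1 of 24 other genes between or beside them was higher, 3 were lower and the median was 0.00. The 3 lower genes were Top2a and Cdc6, genes of dividing cells, at -2.02 and -1.27, and Smarce1 at -0.26; the higher gene was Igfbp4 at 0.50. All 4 were picked out by their values. The strand and position of the probes of Thra and Nr1d1 relative to their overlap are not stated.

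**Figure D3:**
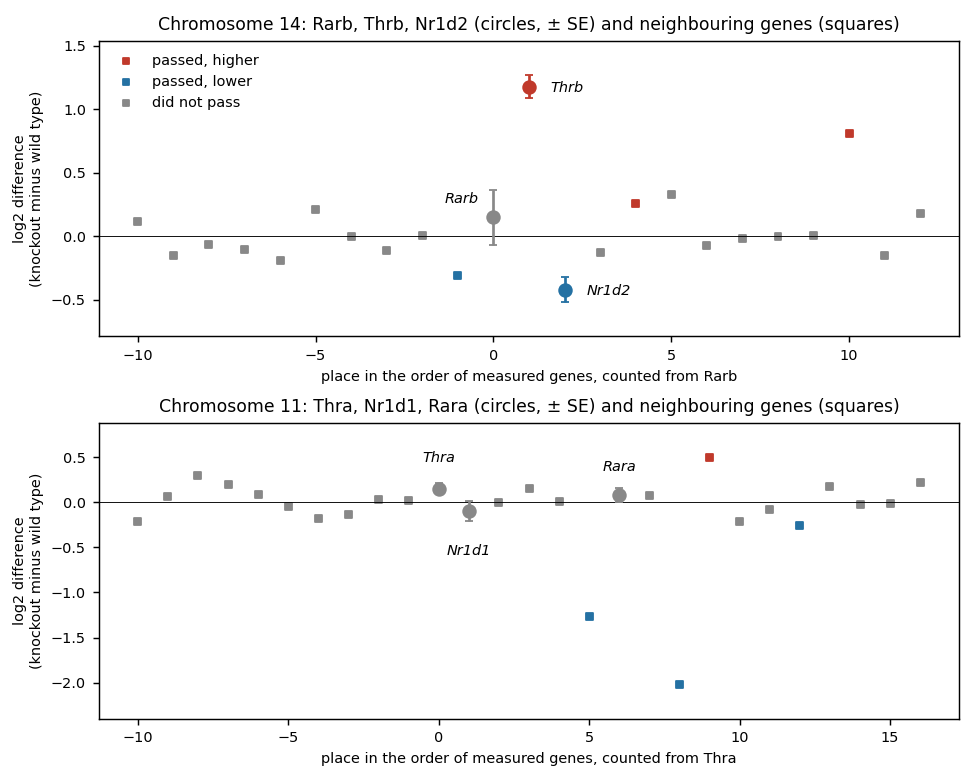
Difference in log2 signal, knockout minus wild type, along the order of measured genes around the receptor trios of chromosome 14 (top) and chromosome 11 (bottom); circles with SE bars are receptors and squares are other genes, coloured by whether they passed the test. Thrb at 1.18 and Nr1d2 at -0.42 are adjacent and lie on opposite sides of 0.

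Genes that act with the receptors were then counted from lists of well known targets and partners. Since such lists were drawn up with results of these data known, and since many of their genes are also typical of hepatocytes, whose markers rose, the counts are descriptions. Over all genes 10.4% rose and 10.4% fell. Among genes brighter than the median probe set it was 17.5% in each direction. Such genes make up most of every list except that of vitamin D genes, where they are 4 of 9. Among the 23 measured coregulators, proteins that receptors recruit to open or close chromatin, 6 rose and 5 fell, with a median of 0.03. Prox1, a corepressor of LRH-1 and other receptors, was higher by 0.49 ± 0.061 (limma adjusted p = 0.000496). The coactivator Ncoa2 was higher by 0.40 ± 0.052 (limma adjusted p = 0.000648), and its neighbours on chromosome 1 had a median of 0.31. Prmt1, an arginine methyltransferase that acts as a coactivator, was lower at -0.43 ± 0.058 (limma adjusted p = 0.000793).

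Of 28 measured PPARα target genes, 18 rose and 2 fell, with a median of 0.44. Cyp4a14, a fatty acid hydroxylase, differed by 1.42 ± 0.082 (limma adjusted p = 6.82e-06), Fabp1, the liver fatty acid binding protein, by 1.27 ± 0.082 (limma adjusted p = 1.20e-05) and Creb3l3, a transcription factor of fasting, by 1.06 ± 0.061 (limma adjusted p = 6.52e-06). The pair that fell was Plin2, a coat protein of lipid droplets, and Vnn1, a pantetheinase, at -0.33 and -0.76. Of 16 measured LXR targets 10 rose and none passed as lower, with a median of 0.29. They were led by Scd1, a fatty acid desaturase, at 1.56 ± 0.079 (limma adjusted p = 3.58e-06), Apoe, an apolipoprotein, at 1.37 ± 0.083 (limma adjusted p = 8.37e-06) and Abca1, the cholesterol exporter, at 1.28 ± 0.073 (limma adjusted p = 6.29e-06).

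FXR targets showed 8 of 16 measured genes higher and none past the threshold in the other direction, with a median of 0.40, while the FXR gene Nr1h4 itself did not pass. Slc10a1, the bile acid importer NTCP, differed by 3.41 ± 0.105 (limma adjusted p = 4.85e-07), Abcb11, the bile salt export pump, by 1.60 ± 0.133 (limma adjusted p = 5.21e-05) and Apoc2, an activator of lipoprotein lipase, by 0.87 ± 0.074 (limma adjusted p = 5.99e-05). Slc10a1 is known as a gene that FXR signalling lowers rather than raises. The list was not split by the direction in which FXR acts, so its count does not describe FXR-induced genes alone. Of 21 measured CAR and PXR targets 6 rose and 2 fell, with a median of 0.17. Cyp3a11, the classical PXR target, was higher by 0.92 ± 0.077 (limma adjusted p = 5.30e-05), the carboxylesterase Ces2a by 2.20 ± 0.071 (limma adjusted p = 4.85e-07) and Cyp2c55 by 0.83 ± 0.068 (limma adjusted p = 4.75e-05). Abcc4, a drug exporter, and Gadd45b, a stress gene, were lower at -0.80 and -0.77.

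The glucocorticoid list held 21 measured genes, of which 12 rose and 2 fell, with a median of 0.33, while Nr3c1 did not pass. Tat, which degrades tyrosine, differed by 2.51 ± 0.063 (limma adjusted p = 2.59e-07), G6pc, the last enzyme of glucose release, by 2.62 ± 0.092 (limma adjusted p = 5.46e-07) and Igfbp1 by 1.47 ± 0.088 (limma adjusted p = 7.55e-06). Tat and G6pc were also among the hepatocyte markers that rose, as was Fabp1 of the PPARα list. The genes that fell were Lcn2 and Fkbp4. Sharing members with other lists was common: Klf9 stood in the glucocorticoid and thyroid lists, and Pdk4 and Acadm in the PPARα and ERR lists. Angptl4 stood in the PPARα and glucocorticoid lists, and Abcc2 in the FXR list and the list of CAR and PXR targets. Aldh1a1 stood in the list of CAR and PXR targets and in the retinoid list. Each of these genes was counted as higher in both of its lists.

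**Figure D4:**
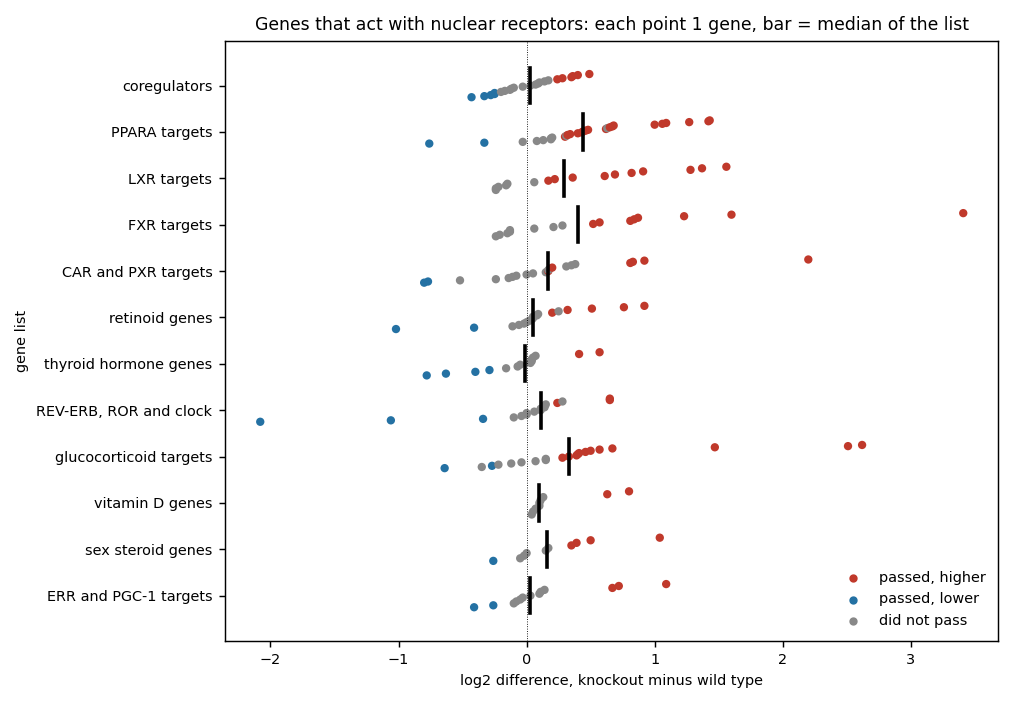
Difference in log2 signal, knockout minus wild type, for each measured gene of 12 lists of receptor partners and targets (1 point per gene, 1 row per list); the black bar is the median of the list. The PPARα, FXR, glucocorticoid and LXR lists had the highest medians, 0.44, 0.40, 0.33 and 0.29, against -0.003 over all genes, and the thyroid hormone list the lowest, -0.01.

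Thyroid hormone genes did not move one way, although Thrb was more than 2-fold higher. Of 14 measured genes 2 rose and 4 fell, with a median of -0.01. Klf9 was higher by 0.41 ± 0.056 (limma adjusted p = 0.000912), whereas malic enzyme Me1, a classical hepatic target, was lower at -0.40 ± 0.062 (limma adjusted p = 0.00162) and Bcl3 at -0.63 ± 0.097 (limma adjusted p = 0.00171). Hr, a corepressor of the thyroid hormone receptor, and Gpd2 also fell, and Thrsp rose. No thyroid hormone is named among the supplements of the medium, which contained serum. Whether the hormone was present in the cultures was not tested. Of 18 measured retinoid genes 5 rose and 2 fell, with a median of 0.05. Rbp4, the plasma carrier of retinol, was higher by 0.92 ± 0.063 (limma adjusted p = 1.69e-05), Adh1 by 0.76 ± 0.095 (limma adjusted p = 0.000514) and Dhrs3, which reduces retinaldehyde, by 0.51 ± 0.068 (limma adjusted p = 0.000770). Rdh10 and Adh7 fell. The neighbours of Adh1 on chromosome 3 had a median of 0.25.

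Of 17 measured REV-ERB, ROR and clock genes 3 rose and 3 fell, with a median of 0.11. E2f8, listed here as a REV-ERB target and also known as a repressor that acts in dividing cells, fell by 2.08 ± 0.160 (limma adjusted p = 3.33e-05) and the clock repressor Bhlhe41 was lower at -1.06 ± 0.104 (limma adjusted p = 0.000133). Tef, a clock output factor, was higher by 0.65 ± 0.076 (limma adjusted p = 0.000344). ERR and PGC1 targets numbered 13 measured, with 3 higher, 2 lower and a median of 0.03. Pdk4, Ndufs1 and Acadm rose by 1.09 ± 0.078, 0.72 ± 0.052 and 0.67 ± 0.059 (limma adjusted p = 2.28e-05, 2.30e-05 and 6.86e-05), and the citric acid cycle enzymes Mdh2 and Cs fell. The neighbours of Acadm on chromosome 3 had a median of 0.24.

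Vitamin D genes had 2 of 9 measured members higher, Cyp27a1 at 0.63 ± 0.070 (limma adjusted p = 0.000254) and S100g at 0.80 ± 0.151 (limma adjusted p = 0.00502), and none past the threshold in the other direction. Of 10 measured sex steroid genes 4 rose and 1, Ctsd, fell. Cyp17a1, a steroid hydroxylase, was higher by 1.04 ± 0.141 (limma adjusted p = 0.000816), Igfbp4 by 0.50 ± 0.071 (limma adjusted p = 0.00103) and Xbp1 by 0.39 ± 0.060 (limma adjusted p = 0.00167).

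The strength of the receptor calls was compared across 17 alternative settings, which comprised other normalizations, filters and variance models, subtraction of the local chromosomal median, the replicate number as a block and the omission of each array. Nr1i2, Thrb, Rxra, Nr1h3, Nr5a2 and Ppara passed under all 17, as did Rorb and Nr4a1. Their differences ranged from 1.30 to 1.39 for Nr1i2, from 1.12 to 1.28 for Thrb and from 0.58 to 0.80 for Rxra. Those of Nr1h3, Nr5a2 and Ppara ranged from 0.48 to 0.73, from 0.50 to 0.61 and from 0.34 to 0.45. Among the other 5 receptors that were lower, each failed in at least 1 setting, Pparg in 9 and Nr2c2 in 10, and without wild-type replicate 4 the lower side held 4 receptors.

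**Figure D5:**
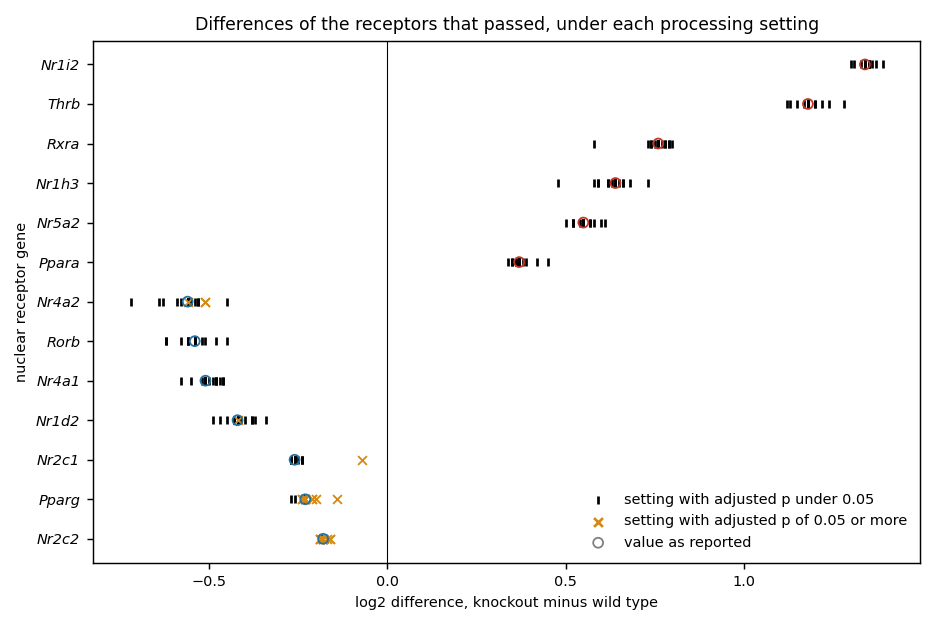
Difference in log2 signal, knockout minus wild type, of the 13 receptors that passed, under each of the 17 alternative settings; a black tick is a setting in which the receptor passed, an orange cross one in which it did not, and the open circle the value as reported. The 6 higher receptors, Rorb and Nr4a1 have ticks only, while Nr4a2, Nr1d2, Nr2c1, Pparg and Nr2c2 have at least 1 cross.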

How the data were processed

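RNA of 4 wild-type and 4 VWA8-knockout AML12 cultures was hybridised to Affymetrix Mouse 2.0 arrays. The authors deposited 1 table of log2 signals for 41345 probe sets; their background correction and normalization are not stated in the labels, and the log2 scale was inferred from the range of the values. The platform annotation gave 1 gene symbol to 23521 probe sets, several to 1814 and listed none for 16010. Per gene, the single-symbol probe set with the highest mean over 8 arrays was used. Differences were tested with limma 3.58.1 (R 4.3.3; lmFit and eBayes, genotype only) and adjusted by Benjamini-Hochberg over 22180 genes at a threshold of 0.05; scripts were tested on simulated data. Intervals are 95% intervals of that fit. Pairs of receptors were compared with exact permutation tests (scipy 1.17.1), and figures were drawn with matplotlib 3.10.9.

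The receptors, role groups, target lists and markers were chosen with earlier results of these data known; the 12 pairs and the TGACG core were chosen after the values were seen. Named were every receptor that passed, 13 receptors regardless of value, and of each list at most 3 members with the smallest adjusted p; others named in the text were chosen after their values were seen. Promoters came from RefSeq (GRCm38.p6), with entries for 41 of the 45 receptors, and 21994 genes had a chromosome there. Samples of a group were separate cultures, and p-values measure the spread between these cultures only. With 4 arrays a group, precision is limited by their number. Alternatives changed the normalization (quantile, or centring on medians), the variance model (robust with a trend, or with array weights), the filter (without the dimmest 25% or 50%), the summary (a mean over all probe sets naming a gene), the reference (the median of 30 brighter genes on each side subtracted), the block (replicate number) and the arrays (each omitted in turn).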

Additional observations from a re-analysis of the deposited data

Results flagged for a closer look

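In 9 of 156 groups of 4 arrays examined, 1 array stood apart from the other 3 by more than Dixon's 95% critical value; chance alone flags about 5% of such groups. Among the receptors, Ppara read 7.13 on knockout replicate 3, below 7.31 to 7.35 on the other knockout arrays and still above the wild type. Pgr read 3.01 on wild-type replicate 2 against 3.42 to 3.48, and Nr0b1 read 1.74 on knockout replicate 2 against 2.42 to 2.48; both are dim and neither passed the test. Among the named target genes, knockout replicate 1 was low for Bcl3 (6.56 against 6.76 to 6.79), Igfbp1 (6.97 against 7.21 to 7.24) and Ndufs1 (8.95 against 8.98 to 8.99). Knockout replicate 2 was high for Ces2a (8.42 against 8.34 to 8.35), wild-type replicate 2 was low for Klf9 (10.18 against 10.23 to 10.24) and wild-type replicate 3 was high for Bhlhe41 (6.34 against 6.02).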

How the results depend on the processing

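The count of higher receptors was 6 and ranged from 6 to 8 over the 17 alternatives (6 to 7 with single arrays left out). The count of lower receptors was 7, and 4 to 6 with single arrays left out, the lowest without wild-type replicate 4. The replicate numbers did not pair the arrays (correlations of same-numbered deviations 0.06, 0.00, 0.02 and 0.03); with that number as a block, 6 receptors were higher and 3 lower, and the all-gene counts were 1890 higher and 1827 lower against 2314 and 2312. Under the block Pparg, Nr1d2, Nr2c2 and Nr4a2 no longer passed (limma adjusted p = 0.0917, 0.0612, 0.108 and 0.0532). Subtraction of neighbouring genes left 8 higher, with Nr1h4 and Esr1 added, and 5 lower. Signs turned only in receptors that had not passed: with neighbours subtracted Nr2e1 was 0.10, Nr2f2 0.02, Nr2f6 0.00, Nr3c1 -0.02 and Nr0b1 0.01. With single arrays left out the range was -0.03 to 0.07 for Rarg, -0.03 to 0.17 for Esr2 and -0.05 to 0.25 for Esrrb (each negative without wild-type replicate 4). It was -0.06 to 0.30 for Rarb, -0.08 to 0.07 for Nr2e1 and -0.10 to 0.02 for Nr3c2 (turned without knockout replicate 1), and -0.17 to 0.01 for Nr1d1 and -0.14 to 0.11 for Nr0b1 (turned without knockout replicate 2). The cause of these turns was not tested. Of all receptor differences under the alternatives, 672 kept direction and call, 24 lost the call, 8 gained one and 13 turned sign. Of the list counts, 395 stayed within 1.5 times the value reported and 13 did not. With the block, 3 retinoid genes were higher and no sex steroid gene lower. With an intensity trend, 1 LXR and 1 FXR target were lower. Without the dimmest 25% or 50% of probe sets, 4 glucocorticoid targets were lower; without the dimmest 50%, 1 vitamin D gene (of 3 left) was higher, and 1 FXR target and 1 retinoid gene were lower. With neighbours subtracted, 1 LXR target, 1 ERR target and no sex steroid gene were lower, and without wild-type replicate 4, 1 FXR target was lower. How far the dim receptors lie above background was not measured: 13 had both group means at or below the median probe set.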
